A study of Mus musculus with 6 samples.

Results

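The lysosomal cathepsins are the peptidases that break down proteins inside the lysosome, and 10 of their genes were followed here in long-term hematopoietic stem cells (LT-HSCs): Ctsa, Ctsb, Ctsc, Ctsd, Ctsf, Ctsh, Ctsl, Ctso, Ctss and Ctsz. They were chosen by name, as 10 of the 27179 genes of the count table, and all 10 are also among the 12179 genes of the normalized table. The libraries were made from total RNA of LT-HSCs sorted as CD150+CD48-LSK cells from the bone marrow of C57BL/6 mice at 8 weeks of age. There were 3 WT libraries and 3 libraries labelled as from Foxm1 heterozygous mice (Foxm1 HET). By that label these mice keep 1 working copy of the gene for the cell-cycle transcription factor Foxm1. The Foxm1 HET titles name a floxed allele over a wild-type allele with no Cre. In the study, mice of that genotype without Cre served as controls, so the titles and the heterozygous label do not match if read literally. The WT labels do not say whether those mice carried a floxed allele. The study bred the floxed allele to Tie2-Cre, which acts in endothelial and blood cells, and to Mx1-Cre, which is induced in blood and other cells, and its description of the RNA-Seq does not say which was used. The methods describe bone marrow taken from 3 pairs of heterozygous and control mice, which fits 1 mouse for each library, and they do not say which libraries form a pair or what a pair shared. P-values measure the spread between these 6 libraries.

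Cathepsins are made as inactive precursors in the endoplasmic reticulum, carried to the lysosome mostly by mannose 6-phosphate receptors and activated there by acid and by each other. Most are cysteine peptidases of the papain family, while Ctsd is an aspartic peptidase and Ctsa a serine carboxypeptidase. Many lysosomal genes carry CACGTG, the E-box core that the factors Tfeb, Tfe3 and Mitf bind, near their start sites, and lysosomal activity has been linked to quiescence of hematopoietic stem cells. The question for these genes was whether their levels differed between the genotypes. For 8 of the 10 genes the WT and Foxm1 HET libraries overlapped. Ctso and Ctsz were the exceptions, with every Foxm1 HET library above every WT library, as in 4.12% of all genes tested. Neither passed the edgeR test after adjustment over all genes, while DESeq2 gave Ctso an adjusted p of 0.00166 and Ctsz none. Ctsz entered the edgeR test through its Foxm1 HET libraries alone, so its order was in part fixed by the filter.

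The stretches before the start sites of Ctso and Ctsz are shown because these were the members whose genotypes did not overlap. RefSeq start-site windows of GRCm38.p6, from 250 bases before to 50 after a start, covered 8 of the 10 members in 9 windows, with 2 for Ctsa. Below are the 250 bases before each start, 5′ to 3′ on the gene's own strand. Capitals mark TGTTTA, the core bound by forkhead factors such as Foxm1, searched on both strands, and in Ctso it lies on the opposite strand as TAAACA.
Ctso, chr3:81932351-81932600, plus strand: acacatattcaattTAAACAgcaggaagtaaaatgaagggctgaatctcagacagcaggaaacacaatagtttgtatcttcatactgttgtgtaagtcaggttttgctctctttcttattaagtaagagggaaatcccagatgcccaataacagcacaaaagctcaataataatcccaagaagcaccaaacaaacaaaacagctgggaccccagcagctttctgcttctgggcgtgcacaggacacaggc
Ctsz, chr2:174439040-174439289, minus strand: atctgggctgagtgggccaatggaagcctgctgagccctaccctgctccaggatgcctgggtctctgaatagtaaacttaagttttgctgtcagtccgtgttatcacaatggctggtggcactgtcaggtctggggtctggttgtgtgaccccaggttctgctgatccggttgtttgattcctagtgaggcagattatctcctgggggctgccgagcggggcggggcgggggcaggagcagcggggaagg
Neither window held CACGTG, and that of Ctsz held no TGTTTA either. Of all 32851 RefSeq windows, 13.4% held TGTTTA, as did 2 of the 9 member windows, those of Ctso at -236 and Ctsl at -131 bases from the start.

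CACGTG stood in 4 of the 9 windows, those of Ctsd, Ctsl and Ctsf and the second start of Ctsa, against 7.15% of all 32851 windows. These 6 sites are given to place the E-box among the members, with CACGTG in capitals. A match is a run of letters and not a measured binding site. Distances are from RefSeq starts, which can differ from the ends of the counted genes. The Ctsl start used, at 64370520, lies upstream of the counted gene, which ends at 64370306. The second Ctsa start, at 164833773, lies inside the counted gene, which begins at 164832873.
Ctsa, chr2:164833749-164833778, plus strand: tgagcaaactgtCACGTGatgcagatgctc
Ctsa, chr2:164833766-164833795, plus strand: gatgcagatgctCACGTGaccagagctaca
Ctsd, chr7:142388055-142388077, minus strand: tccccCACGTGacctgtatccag
Ctsd, chr7:142387908-142387937, minus strand: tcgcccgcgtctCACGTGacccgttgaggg
Ctsl, chr13:64370739-64370768, minus strand: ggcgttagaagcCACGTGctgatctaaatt
Ctsf, chr19:4855074-4855103, plus strand: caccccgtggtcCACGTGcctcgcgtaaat
The longer form TCACGTG, which contains CACGTG, was held by 3.77% of all windows and by those of Ctsa and Ctsd. The map of these matches shows where they lie from each start.

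**Figure D1:**
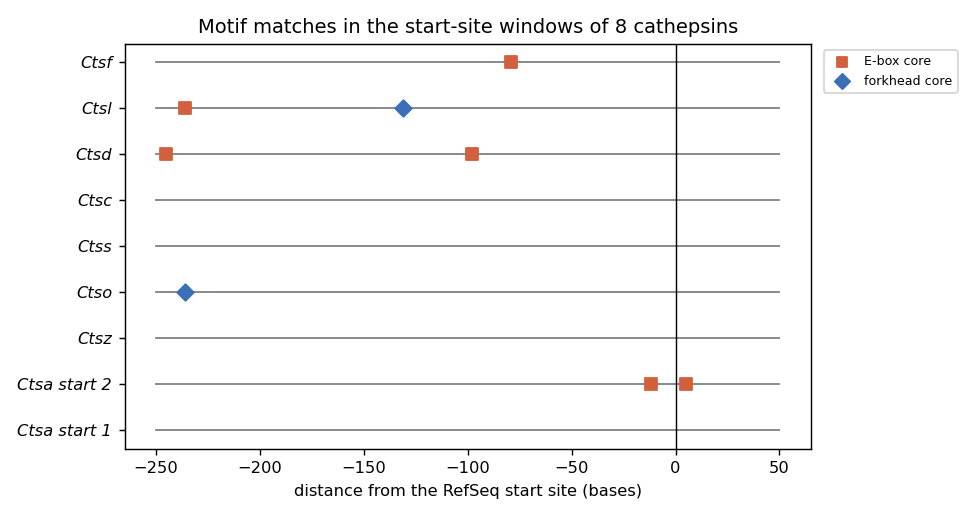
Distance in bases from the RefSeq start site (x axis) of each E-box core (squares) and forkhead core (diamonds) in the 9 windows of 8 cathepsins (y axis). E-boxes lie in 4 windows and none in those of Ctso or Ctsz.

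Total counts ran from 14573002 to 25798509 per library, and the genes with at least 10 counts from 4467 in Foxm1 HET replicate 2, the shallowest library, to 9894 in Foxm1 HET replicate 1. Foxm1 itself had 1182, 2615 and 2942 counts in the WT libraries, against 659, 5 and 742 in the Foxm1 HET libraries, so each library labelled heterozygous was below each WT library (log2 fold change -3.30, SE 2.33, adjusted p = 0.961 in the edgeR quasi-likelihood test, Benjamini-Hochberg corrected). LT-HSC markers summed to 2711 to 6098 CPM (counts-per-million) in WT, against 3867 to 5247 in Foxm1 HET, with 5 of the 8 markers over 3 counts in every library. Slamf1, which encodes the CD150 used for the sort, had 2, 1572 and 0 counts in WT, against 8, 0 and 543 in Foxm1 HET. The 8 neutrophil markers, all detected, summed to 4818 to 13704 CPM in WT, against 1180 to 7596 in Foxm1 HET. Macrophage markers summed to 16.1 to 162 and 17.1 to 153 CPM, with C1qa and C1qb at 0 in every library. B-cell markers ranged from 12.6 to 200 CPM in WT and from 0 to 6.68 in Foxm1 HET, with Cd79a, Ebf1 and Ms4a1 at 0 throughout. T-cell markers ranged from 0 to 4.46 and from 0 to 30.5 CPM, with Cd3d and Cd3g at 0 throughout, and the 5 erythroid markers in the table from 217 to 684 and from 65.9 to 507 CPM, with Hba-a1 at 0 throughout. The part of other cells in the cathepsin values was not tested, and in bulk libraries fewer cells that express a gene and less RNA per cell cannot be told apart.

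Together the 10 cathepsins took 735, 1177 and 1227 CPM in WT, against 1359, 261 and 728 CPM in Foxm1 HET. The genotypes overlapped, with the lowest sum in the shallowest library. Per length, as TPM (transcripts-per-million) computed from the counts and the deposited lengths, their sum was 816, 1132 and 1232 TPM in WT, against 1322, 395 and 673 TPM in Foxm1 HET. From 7 to 10 cathepsins had more than 3 counts in a library, a floor that corresponds to 0.116 to 0.206 CPM and covers counting error only.

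Which cathepsin led changed from library to library within a genotype. Ctsd took 66.6% of the cathepsin TPM in WT replicate 1, 41.0% in Foxm1 HET replicate 1 and 48.9% in Foxm1 HET replicate 3. Ctss led in WT replicate 2 with 37.8% and in Foxm1 HET replicate 2 with 82.4%, and Ctsf took 59.5% in WT replicate 3. Each library had the same leader in the deposited normalized table. The 3 most abundant members held 74.9% to 95.9% of the cathepsin TPM of a library.

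**Figure D2:**
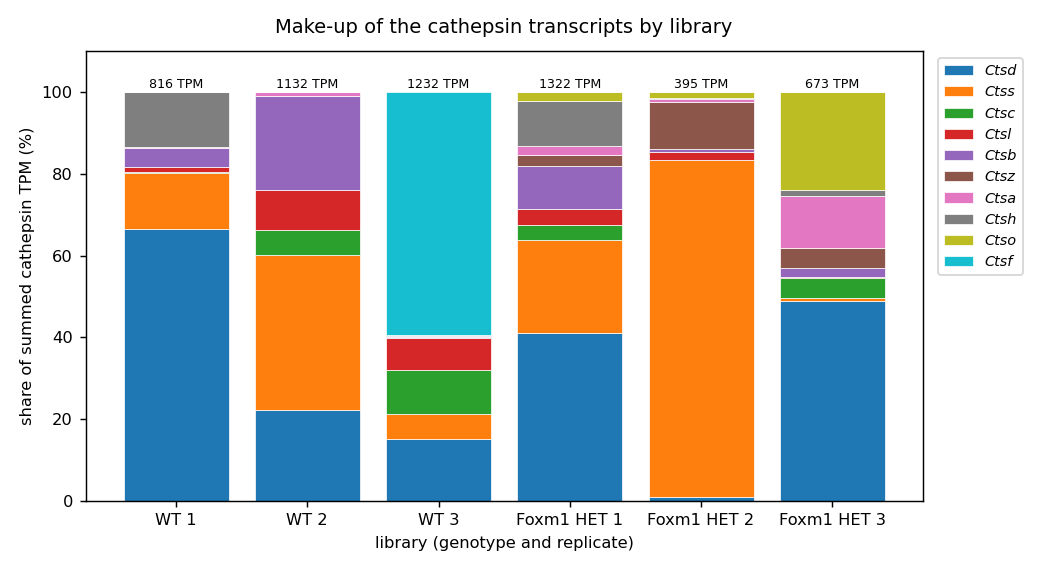
Share of summed cathepsin TPM (%, y axis) taken by each of the 10 cathepsins (colors) in each library (x axis), with the summed TPM above each bar. Ctsd leads in 3 libraries, Ctss in 2 and Ctsf in 1, and the leader differs within each genotype.

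Ordered by the median TPM over the 6 libraries, Ctsd stood at 291, Ctss at 206, Ctsc at 41.5, Ctsl at 30.0, Ctsb at 25.4, Ctsz at 16.8, Ctsa at 6.77, Ctsh at 6.54, Ctso at 3.14 and Ctsf at 0.197. None of the 9 neighbouring pairs in this order differed beyond the spread between libraries, with exact two-sided sign permutation p-values from 0.219 to 0.781 on log2(TPM + 0.1) and an adjusted p of 0.781 for each pair. The mean log2 difference had the opposite sign to the order for Ctsc and Ctsl (-0.56), Ctsl and Ctsb (-0.34) and Ctsz and Ctsa (-1.53). The medians of Ctsz and Ctso fall between the genotypes, at a level that no library had. The order is thus a description of these libraries. Between the highest and the lowest library, CPM differed 51.8-fold for Ctsa, 147-fold for Ctsd, 1302-fold for Ctsh, 2373-fold for Ctsc and 18603-fold for Ctsf.

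The edgeR fit tested 9 of the 10 cathepsins, leaving out Ctsf, and none had an adjusted p under 0.05, against 27 of the 8195 genes tested (0.329%). DESeq2 gave 1 such cathepsin, Ctso, against 194 of the 6195 genes to which it gave an adjusted p (3.13%). At an unadjusted p under 0.05, 2 cathepsins were higher in Foxm1 HET, Ctso and Ctsz, beside 282 of all genes tested (3.44%), and no cathepsin tested was lower. The same pair had every Foxm1 HET library above every WT library, beside 338 of all genes tested (4.12%), and no cathepsin had the reverse order, found in 373 genes (4.55%). Ctsz entered the test through its Foxm1 HET libraries alone, so its difference was in part fixed by the filter, and the counts of cathepsins are read as a description only. Estimates were above 0 for 5 cathepsins and below 0 for 4, with a median log2 fold change of 0.04 and a median SE of 2.41. Over all genes tested the median was -0.26 and the median SE 2.59, with 3724 estimates above 0 and 4471 below.

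**Figure D3:**
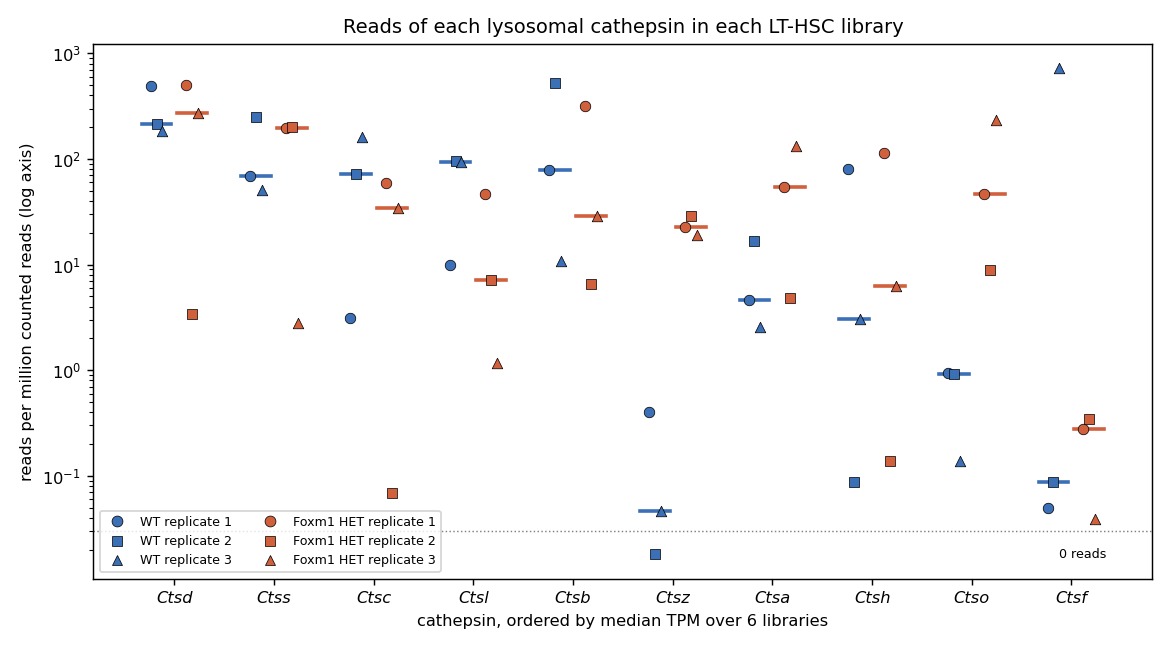
CPM on all counted reads (y axis, log scale) of each cathepsin (x axis, by median TPM) in the 3 WT (blue) and 3 Foxm1 HET (orange) libraries, with symbols for replicates and bars at the median of each genotype. A point under the dotted line has 0 reads, and only for Ctsz and Ctso do all orange points lie above all blue points.

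Among the cysteine endopeptidases, Ctso was low in every WT library and higher in every Foxm1 HET library. Ctso is a widely expressed and little studied member of the papain family, at chr3:81932616-81956725 on the plus strand (GRCm38). It had 19, 21 and 3 reads in the WT libraries, against 1177, 130 and 6025 in the Foxm1 HET libraries. In TPM these were 0.597, 0.614 and 0.0810 against 28.0, 5.68 and 161. All WT libraries were low, all Foxm1 HET libraries were at least several times higher, and Foxm1 HET replicate 3 held most of the reads. Mean log2 CPM was -0.66 ± 1.07 in WT, against 5.49 ± 1.49 in Foxm1 HET (SD, n = 3 each, exact two-sided permutation p = 0.1, the smallest this design can give). The log2 fold change was 6.61 (SE 3.19, unadjusted p = 0.0381, adjusted p = 0.773 in the edgeR quasi-likelihood test, Benjamini-Hochberg corrected). Pooled over libraries, 43 reads in WT stood against 7332 in Foxm1 HET, a ratio of 167 after scaling to library totals, with a 95% exact interval from 124 to 231 that covers counting error only. Over fits that each left out 1 library, the estimate ran from 5.31 without Foxm1 HET replicate 3 to 7.08 without Foxm1 HET replicate 2, and the unadjusted edgeR p stayed under 0.05 only without the latter.

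Ctss, the endopeptidase that trims the invariant chain of MHC class II in antigen-presenting cells, lies at chr3:95526786-95556403. Its TPM was 110, 428 and 74.5 in WT, against 301, 325 and 4.92 in Foxm1 HET. Both genotypes held high libraries, and the lowest was Foxm1 HET replicate 3. The log2 fold change was 0.60 with an SE of 1.75, and its sign turned in limma-voom, in the normalized table and without Foxm1 HET replicate 2 (-0.90).

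Ctsb, which acts both inside chains and on their carboxyl ends, lies at chr14:63122462-63145923 and was spread widely in both genotypes. Its TPM was 36.2, 259 and 4.60 in WT, against 140, 3.02 and 14.6 in Foxm1 HET. WT replicate 2 and Foxm1 HET replicate 1 were high, and the other libraries overlapped (log2 fold change -1.35, SE 1.81). Of its exon bases, 16.3% lie opposite Fdft1, which had 0 to 326 reads in a library.

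Ctsl, a broad endopeptidase at chr13:64363214-64370306 on the minus strand, had a lower estimate in Foxm1 HET that did not pass the test. TPM was 10.9, 113 and 95.0 in WT, against 49.1, 7.88 and 1.41 in Foxm1 HET. WT replicates 2 and 3 were the highest, and WT replicate 1 lay among the Foxm1 HET libraries. The log2 fold change was -2.29 (SE 2.41, exact two-sided permutation p = 0.3). Of the 50-base stretches of its transcripts, the read length used, 27.2% also occur in other annotated genes. These 6323 stretches come from all its annotated protein-coding transcripts, whereas the counted gene has 1971 exon bases. The share that applies to the counted exons is therefore not known, and its counts may depend on how such reads were assigned.

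Ctsf, a cysteine peptidase with a long cystatin-like propeptide at chr19:4855129-4860912, was a gene of a lone library. It had 1, 2 and 15522 reads in WT, against 7, 5 and 1 in Foxm1 HET. WT replicate 3 reached 733 TPM, and the other 5 libraries stayed between 0.0468 and 0.382 TPM. The other WT libraries lay inside the range of the Foxm1 HET libraries. It was therefore not tested, since the filter level of 0.449 CPM was reached in 1 library. With no filter its log2 fold change was -9.99 (SE 2.66, adjusted p = 0.0527 in the edgeR quasi-likelihood test, Benjamini-Hochberg corrected), a value that rests on WT replicate 3. None of its 50-base stretches occurs in another annotated gene.

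Of the exopeptidases, Ctsz had the largest estimate. It reached the filter level in 0 of 3 WT and 3 of 3 Foxm1 HET libraries. Its difference was therefore in part fixed by the filter, and its values are a description. Ctsz, also called cathepsin X, removes single residues from carboxyl ends and lies at chr2:174427494-174438992 on the minus strand. It had 8, 0 and 1 reads in WT, against 580, 422 and 496 in Foxm1 HET. The TPM values were 0.623, 0 and 0.0669 in WT, against 34.3, 45.7 and 32.9 in Foxm1 HET. In TPM the Foxm1 HET libraries lay close together for their level. In the normalized table they stood at 4.46, 6.21 and 3.93, no closer than those of Ctsa at 4.21, 4.22 and 5.99. WT replicates 2 and 3 were under the 3-count floor. Mean log2 CPM was -2.53 ± 1.24 in WT, against 4.51 ± 1.32 in Foxm1 HET (SD, n = 3 each, exact two-sided permutation p = 0.1). The edgeR quasi-likelihood fit gave a log2 fold change of 7.71 (SE 3.75, unadjusted p = 0.0401, adjusted p = 0.776 with Benjamini-Hochberg adjustment), a size that rests on very few WT reads. In pooled reads, 9 in WT stood against 1498 in Foxm1 HET, a ratio of 163 after the same scaling (95% exact interval 85.8 to 358, counting error only). Leaving out a library moved the estimate between 6.58 and 9.78 and the unadjusted p between 0.0527 and 0.0978, so that call was lost in each case. Only 0.646% of its exon bases lie opposite another gene, Nelfcd.

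Ctsc, or dipeptidyl peptidase I, activates the granule serine peptidases of myeloid cells and lies at chr7:88278093-88310875. Its TPM was 2.76, 68.0 and 132 in WT, against 49.8, 0.0610 and 33.3 in Foxm1 HET. WT replicate 1 was below both of the deeper Foxm1 HET libraries, and the value of Foxm1 HET replicate 2 rests on 1 read. The estimate was -2.28 on the log2 scale (SE 2.28, exact two-sided permutation p = 0.5).

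Ctsh, an aminopeptidase at chr9:90054267-90076095, had near-absent and high libraries in both genotypes. It had 1623, 2 and 66 reads in WT, against 2880, 2 and 163 in Foxm1 HET. In each genotype replicate 1 was the highest and replicate 2 had 2 reads. The log2 fold change was 0.04 with an SE of 2.61.

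The aspartic peptidase Ctsd, at chr7:142375916-142387870 on the minus strand, was the most abundant cathepsin by median. Its TPM was 543, 253 and 187 in WT, against 542, 3.86 and 329 in Foxm1 HET. Foxm1 HET replicate 2, with 50 reads, stood far below the others, which overlapped. Mean log2 CPM was 8.16 ± 0.55 in WT, against 6.25 ± 2.89 in Foxm1 HET (SD, n = 3 each), with a log2 fold change of -0.82 (SE 1.64) that became -0.20 without Foxm1 HET replicate 2. Of its 50-base stretches, 35.7% also occur in Gm49369, another gene of the GENCODE annotation, and what this did to its counts was not tested. None of its exon bases is shared with another gene of the count table.

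The serine carboxypeptidase Ctsa, at chr2:164832873-164841032 on the plus strand, is also the protective protein that holds the β-galactosidase Glb1 and the sialidase Neu1 in a complex. It had 92, 388 and 55 reads in WT, against 1369, 70 and 3412 in Foxm1 HET. Its TPM was 2.72, 10.7 and 1.40 in WT, against 30.7, 2.87 and 85.9 in Foxm1 HET. Foxm1 HET replicates 1 and 3 were above every WT library, and replicate 2 lay within the WT range. The log2 fold change was 2.37 (SE 2.75, adjusted p = 0.998 in the edgeR quasi-likelihood test, Benjamini-Hochberg corrected, exact two-sided permutation p = 0.2). Of its exon bases, 22.3% lie opposite Pltp and Neurl2, which had no reads except for 1 of Neurl2.

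**Figure D4:**
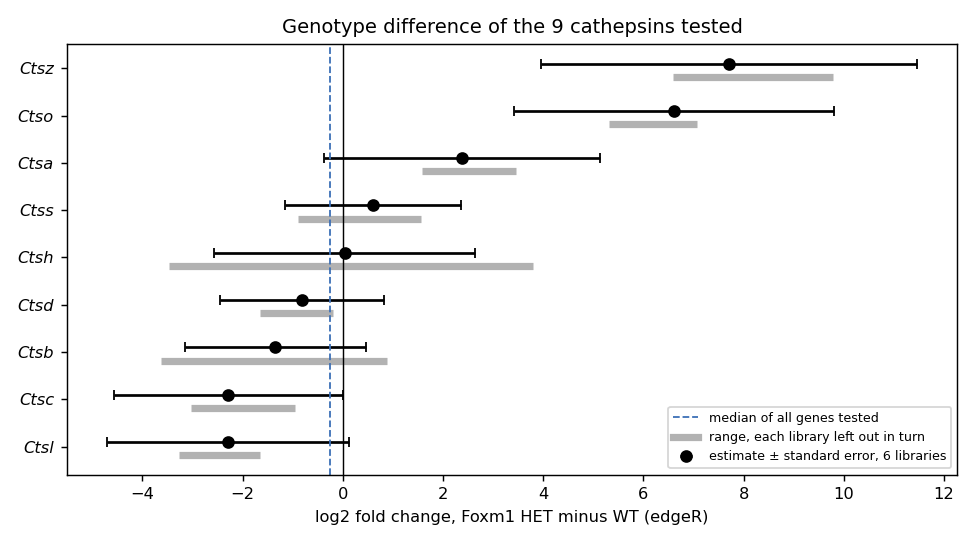
Log2 fold change between Foxm1 HET and WT (x axis) of the 9 cathepsins tested (y axis), as edgeR estimates with standard errors (points and lines), the range with each library left out (grey bars) and the median of all genes tested (dashed line at -0.26). The ranges of Ctsz and Ctso stay above 5, and those of Ctsb, Ctsh and Ctss cross 0.

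The partners of Ctsa and other lysosomal peptidases were a list of 6 genes, of which 5 were tested. Estimates were above 0 for 3 and below 0 for 2, and 1, Glb1, had an unadjusted p under 0.05 and genotypes that did not overlap, beside 3.44% and 4.12% of all genes tested that were higher in these ways. Glb1 had 4, 3 and 1 reads in WT, against 153, 1357 and 1754 in Foxm1 HET. Every Foxm1 HET library was far above every WT library, the same order as for Ctso and Ctsz. Like Ctsz, it reached the filter level in 0 of 3 WT and 3 of 3 Foxm1 HET libraries, so its difference was in part fixed by the filter and its values are a description (log2 fold change 9.34, SE 3.38, unadjusted p = 0.00575, adjusted p = 0.359 in the edgeR quasi-likelihood test, Benjamini-Hochberg corrected). Neu1, the other partner of Ctsa, did not share this order, with 17, 1 and 13 reads in WT, against 0, 0 and 711 in Foxm1 HET. The carboxypeptidases Scpep1 and Prcp had log2 fold changes of -1.26 (SE 2.24) and 1.29 (SE 2.44), with genotypes that overlapped.

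Of the 8 genes that deliver or process cathepsins, 6 were tested, with 4 estimates above 0, 2 below and none at an unadjusted p under 0.05. M6pr, the cation-dependent mannose 6-phosphate receptor, had 2189, 16153 and 4731 reads in WT, against 4574, 6 and 3094 in Foxm1 HET (log2 fold change -2.51, SE 1.74). Igf2r, the cation-independent receptor, had 383, 1157 and 3 reads in WT, against 5195, 1538 and 374 in Foxm1 HET (log2 fold change 2.48, SE 2.17). The receptors thus pointed in opposite directions, and in both the genotypes overlapped. Gnptab, which makes the mannose 6-phosphate tag, had a log2 fold change of 1.24 (SE 1.86), and the sorting receptor Sort1 of 1.14 (SE 2.02).

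The regulators of the MiT/TFE family were a list of 4 genes, of which 3 were tested, and none had an unadjusted p under 0.05. Tfeb, Tfe3 and Tfec had log2 fold changes of 0.92 (SE 2.98), 3.43 (SE 3.22) and -1.18 (SE 2.94), each with genotypes that overlapped. The Tfe3 estimate ran from 2.14 to 8.03 with 1 library left out, the latter without WT replicate 1. Tfe3 had 93, 0 and 2 reads in WT, against 1342, 1 and 472 in Foxm1 HET, so Foxm1 HET replicates 1 and 3 were high and replicate 2 was not.

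Of 9 cystatin and stefin genes, which encode inhibitors of cathepsins, 7 had 0 reads in every library and Cstb had 11 reads in Foxm1 HET replicate 1 alone. Cst3, the secreted cystatin C, had 168, 49 and 75 reads in WT, against 207, 1 and 247 in Foxm1 HET, and its log2 fold change was -0.33 (SE 2.96). The sign of that estimate turned under upper-quartile and library-size scaling, and 44.1% of its exon bases lie opposite another gene.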

How the data were processed

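RNA from 3 WT and 3 Foxm1 HET samples of sorted LT-HSCs was sequenced as 50-base single reads. The study's methods give a total RNA yield in the low nanogram range. How this low input bears on genes with many reads in some libraries and few in others was not tested. The labels describe ribosomal RNA depletion and a stranded TruSeq total RNA kit, whereas the study's methods name a Clontech kit. The authors deposited raw counts per gene with gene lengths, made from reads aligned to GRCm38 (mm10) with STAR 2.7.2b per the submitters' processing notes, and the counter, its strand setting and its handling of reads that match several genes are not given in the sources used here. The authors also deposited a table of log2 normalized values for 12179 genes, with the same maximum in every library, and the same notes name limma. Gene IDs were named from the normalized table and RefSeq, with 94.0% matched. Columns of the whole-series tables were matched to samples by name, and 0 columns were left unmatched.

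Counts were tested in R 4.3.3 with edgeR 4.0.16 (filterByExpr, TMM, quasi-likelihood test, Benjamini-Hochberg adjustment over the 8195 genes kept). The fit gave a common biological coefficient of variation, the spread between libraries relative to the mean, of 1.66. The study's methods name no test for its RNA-Seq. Its heatmap shows 576 genes with P under 0.05. Limma on the normalized table gave the same number here at an unadjusted p under 0.05, and 0 genes at an adjusted p under 0.05. Whether these are the same genes was not tested. TPM used the deposited counts and lengths. Limma 3.58.1 and DESeq2 1.42.0 served as alternatives. The edgeR script was tested on simulated counts, and the check it had to pass used a much smaller spread than these data have. That check does not show how the test performs at the spread seen here. Depth was 14573002 to 25798509 counts per library, and reads without molecular identifiers make intervals cover counting error only. Genes were located from the count table's exon coordinates. Shared exon bases came from the same table and shared 50-base stretches from GENCODE vM21 transcripts.

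All 10 members are named, with up to 4 genes of smallest unadjusted p from each list among those with at least 10 counts in at least 3 libraries. The lists were other cathepsins, inhibitors, delivery and processing, partners and other lysosomal peptidases, and MiT/TFE regulators. The members and lists were chosen with earlier results of these data known. The study's methods speak of 3 pairs of mice, and no source ties the replicate numbers to these pairs, so the main fit had no replicate block and a fit with it was an alternative. Alternatives were other scalings, filters and tests, a replicate block, and leaving out each library.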

Additional observations from a re-analysis of the deposited data

How the results depend on the processing

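Genes with an adjusted p under 0.05 numbered 27 under TMM, 10 under RLE, 43 under upper-quartile scaling, 7 under library size only, 194 with DESeq2, 4 with limma-voom, 36 with no filter on low counts (of 13845 genes), 0 with limma on the normalized table (576 at an unadjusted p under 0.05) and 0 with at least 10 counts in every library (157 of 2516 at an unadjusted p under 0.05), the latter a smaller set of genes. Without each library in turn they numbered 0 to 29. Cathepsins with an unadjusted p under 0.05 numbered 2 in edgeR, 3 with no filter (Ctsf added, lower in Foxm1 HET by the lone high WT library), 3 in the normalized table (Ctsa added, higher), 1 under library size only (Ctso), 1 with DESeq2 (Ctso, with Ctsz and Ctsh given no p) and 0 with at least 10 counts in every library, where neither Ctso nor Ctsz was kept and 0 cathepsins had genotypes that did not overlap. Leaving out each library gave 0 to 1 such cathepsins by p and 2 to 4 by lack of overlap, beside 15% to 21.6% of all genes in those fits against 8.68% with all libraries, Ctso and Ctsz among them each time, with Ctsc and Ctsl added (lower in Foxm1 HET) without WT replicate 1, Ctsd (lower) without Foxm1 HET replicate 1, and Ctsa (higher) without WT replicate 2 or Foxm1 HET replicate 2. Ctsa joined them under RLE and in the normalized table too. Under the replicate block, 0 genes had an adjusted p under 0.05 (108 unadjusted) and 0 cathepsins an unadjusted one. Same-numbered samples did not deviate together (correlations of 0.0162, -0.0253 and -0.0687). The check thus gave no sign that the replicate numbers mark the 3 pairs of mice the study describes. Correlations of differently numbered samples were also small. They ran from -0.0253 (WT replicate 1 with Foxm1 HET replicate 2) to 0.0552 (WT replicate 2 with Foxm1 HET replicate 3). Which libraries form a pair stayed unknown. The median log2 fold change of all genes was -0.26 under TMM, -0.13 under RLE, 0.14 under upper-quartile scaling and 0.10 under library size only. Over the fits that kept all 6 libraries, Ctso relative to this median ran from 3.95 to 7.08 and Ctsz from 4.01 to 8.68, the low ends from the normalized table. Signs turned for Ctsh under RLE and DESeq2 (both -0.12), for Ctss under the block (-0.51), limma-voom (-2.17) and the normalized table (-1.23), for Cst3 under upper-quartile scaling (0.082) and library size (0.36), for Neu1 under the block (-2.04), limma-voom (-0.58) and the normalized table (-0.15), for Tfec under the block (1.42) and limma-voom (0.67), and for Ctsd in the log2 ratio of TPM medians (0.38), an alternative added after seeing the data. Without each library in turn, log2 fold changes ran from -3.63 to 0.89 for Ctsb, -3.46 to 3.80 for Ctsh, -0.90 to 1.56 for Ctss, -0.90 to 3.19 for Ctsg, -0.71 to 0.31 for Cst3, -0.13 to 2.82 for Gnptab, -6.48 to 4.13 for Neu1, -3.22 to 2.19 for Tfec and -0.15 to 7.86 for Tfeb. The causes of these changes were not tested. Of 140 alternative values of cathepsin fold changes, 128 were unchanged, as were 184 of 199 for the list genes. Unchanged means the same direction and, where an adjusted p was given, the same side of the threshold. For 10 of 10 cathepsins, the mean share from the normalized table stayed within the SD of the share over the 6 libraries of both genotypes. That SD was wide, 30.0 points for Ctss around a mean share of 27.2%, so this is a weak check. Overlap between genotypes does not depend on the test, so it was not recounted for the block, DESeq2 or limma-voom.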

Other observations

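Cathepsins outside the lysosomal set gave 2 tested genes of 12. Ctse, an aspartic peptidase of endosomes, had 327, 10744 and 22598 reads in WT, against 8343, 669 and 1853 in Foxm1 HET. Per length its median over the 6 libraries was 202 TPM, close to that of Ctss. WT replicate 1 was the lowest library and WT replicate 3 the highest, so the genotypes overlapped (log2 fold change -2.38, SE 1.60, adjusted p = 0.949 in the edgeR quasi-likelihood test, Benjamini-Hochberg corrected). Ctsg, a serine peptidase of neutrophil granules, had 1452, 1 and 196 reads in WT, against 747, 941 and 295 in Foxm1 HET (log2 fold change 1.14, SE 2.39). The 8 placental cathepsins Ctsj, Ctsm, Ctsq, Ctsr, Cts3, Cts6, Cts7 and Cts8 had 0 reads in every library. Ctsk, the collagen-degrading cathepsin of osteoclasts, had 24 reads in Foxm1 HET replicate 3 and 0 elsewhere.

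Several genes of the lists were present in some libraries and nearly absent in others of the same genotype, and those named next were chosen after their values were seen. Lgmn, the asparaginyl peptidase that helps to mature cathepsins, had 0, 4 and 0 reads in WT, against 1216, 0 and 320 in Foxm1 HET. Mitf had 984, 648 and 0 reads in WT, against 3, 1 and 1 in Foxm1 HET. Neither was tested by edgeR after its filter on low counts.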
